A study of Caenorhabditis elegans with 2 samples.

Results

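The regions described are the autosomal binding regions of LSY-2 in Caenorhabditis elegans whose summit, the position of strongest signal, lay in an intron and outside promoters. A region was included when its summit fell inside a protein-coding gene, in no exon of any protein-coding gene, and not between 1000 bp upstream and 200 bp downstream of the annotated 5′ end of any such gene. This rule, which used positions only, took 288 of the 2182 regions that passed the authors' threshold, and 288 of the 1883 on autosomes. Of the other autosomal summits, 1270 lay in a promoter window, 282 were intergenic and 43 were exonic.

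The regions come from chromatin immunoprecipitation and sequencing (ChIP-seq) of whole L2 larvae of mixed sex. There was 1 group, with 2 biological replicates. All worms were of strain OP240, which carries unc-119(ed3) III and the transgene wgIs240, and the tagged protein was eGFP-LSY-2. The protein was therefore recovered from a transgene and from all cells of the animal that make it together, and no untagged or mutant worms belong to the study. The control library was not analysed here and the sequencing depth is unknown. The signal of a region is the value of the authors' peak caller. It is not scaled between replicates, so ratios between replicates depend on an unknown scale.

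LSY-2 is a zinc finger transcription factor known for its part in the left/right difference of the ASE taste neurons. Introns of C. elegans genes can hold regulatory DNA of their host gene, start sites of shorter transcripts, and whole genes for small RNAs. Genes for tRNAs and for some snRNAs are transcribed by RNA polymerase III, with promoter elements inside or close to the gene. SL2 RNA genes, annotated as snRNA genes, supply the leader that is spliced onto downstream messages of operons. Many snoRNAs guide the chemical modification of ribosomal RNA.

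The DNA at the strongest summits of chromosomes II to V away from small RNA genes is printed first. Some of these summits lay near an internal transcript start, the annotated start of a shorter transcript of the host. They were 149 bp upstream of it in wht-3, 159 bp in scc-2 and 137 bp in drap-1. Each run reaches 50 bp to each side of a summit and is read 5′ to 3′ on the plus strand of ce11, from the RefSeq copy of the assembly. Capitals mark matches to GAGAGA or ACGCAG on either strand, which are described further on, and matches that overlap are joined.
wht-3 (chrIII:4150991-4151091): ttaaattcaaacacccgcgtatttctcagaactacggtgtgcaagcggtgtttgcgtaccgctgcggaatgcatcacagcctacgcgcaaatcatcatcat
scc-2 (chrII:255305-255405): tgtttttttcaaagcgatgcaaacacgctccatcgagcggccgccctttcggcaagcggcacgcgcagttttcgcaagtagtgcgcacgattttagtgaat
drap-1 (chrV:9731183-9731283): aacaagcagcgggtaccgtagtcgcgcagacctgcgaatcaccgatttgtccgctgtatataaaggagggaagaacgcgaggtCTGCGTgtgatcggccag
col-72 (chrII:3523676-3523776): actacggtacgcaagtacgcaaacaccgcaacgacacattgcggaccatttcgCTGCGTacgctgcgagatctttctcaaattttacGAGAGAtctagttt
Y111B2A.12 (chrIII:12612596-12612696): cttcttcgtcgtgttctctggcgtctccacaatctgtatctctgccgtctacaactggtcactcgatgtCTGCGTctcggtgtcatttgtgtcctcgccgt
F57A8.1 (chrV:10042430-10042530): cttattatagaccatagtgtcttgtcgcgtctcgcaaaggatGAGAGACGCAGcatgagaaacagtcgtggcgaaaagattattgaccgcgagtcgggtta
The 6 runs are ordered by signal. No match occurred in the runs from wht-3 and scc-2. The runs from drap-1 and Y111B2A.12 held ACGCAG, as its reverse complement CTGCGT. Both strings occurred in the runs from col-72 and F57A8.1, apart in col-72 and overlapping in F57A8.1.

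Another set of regions lay at genes for small RNAs inside the host's intron. Runs that reach 100 bp to each side of the summit are printed for 5 of them, each read 5′ to 3′ on the strand of the RNA gene in ce11, with the annotated RNA gene in capitals. They are the strongest region upstream of an snRNA, a snoRNA and a tRNA gene on chromosomes II to V, and 2 chosen after their values were seen for the known roles of the RNA: sup-5, a tryptophan tRNA gene in which amber suppressors were found, and sls-2.16, an SL2 RNA gene.
W05B2.8 in dhc-4 (chrIII:10989522-10989722, plus strand): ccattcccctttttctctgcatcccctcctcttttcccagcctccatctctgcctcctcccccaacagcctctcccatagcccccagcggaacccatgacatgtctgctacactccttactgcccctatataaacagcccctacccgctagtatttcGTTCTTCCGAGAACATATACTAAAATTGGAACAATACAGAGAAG
ZK994.7 in pxn-1 (chrV:8500443-8500643, plus strand): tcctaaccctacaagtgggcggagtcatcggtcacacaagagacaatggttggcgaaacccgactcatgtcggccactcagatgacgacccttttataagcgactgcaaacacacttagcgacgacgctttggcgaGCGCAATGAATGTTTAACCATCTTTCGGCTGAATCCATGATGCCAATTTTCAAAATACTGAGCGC
W09D6.t2 in rsa-2 (chrIII:11066868-11067068, minus strand): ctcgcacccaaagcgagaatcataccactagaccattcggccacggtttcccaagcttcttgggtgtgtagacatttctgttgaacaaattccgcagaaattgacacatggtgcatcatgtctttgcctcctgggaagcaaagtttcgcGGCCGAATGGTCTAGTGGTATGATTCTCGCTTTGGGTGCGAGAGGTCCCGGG
sup-5 in fli-1 (chrIII:8678484-8678684, minus strand): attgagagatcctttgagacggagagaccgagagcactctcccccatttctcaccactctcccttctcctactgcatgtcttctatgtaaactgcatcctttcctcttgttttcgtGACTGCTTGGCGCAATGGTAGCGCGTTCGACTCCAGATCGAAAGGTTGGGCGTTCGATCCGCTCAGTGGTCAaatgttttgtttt
sls-2.16 in glr-2 (chrIII:7141260-7141460, plus strand): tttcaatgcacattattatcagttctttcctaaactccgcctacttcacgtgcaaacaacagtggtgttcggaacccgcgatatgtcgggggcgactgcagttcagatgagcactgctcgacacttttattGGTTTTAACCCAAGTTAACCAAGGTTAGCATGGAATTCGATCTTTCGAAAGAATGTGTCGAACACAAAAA
In all 5 runs the summit at the middle of the run stood before the first base of the RNA gene. The distance from the summit to that base was 57 bp for W05B2.8, 36 bp for ZK994.7, 49 bp for W09D6.t2, 16 bp for sup-5 and 31 bp for sls-2.16. For the runs taken as the strongest upstream region this side follows from the choice. The other 2 were chosen after their values were seen, so the shared side is no result by itself.

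The intronic regions made up 15.3% of the autosomal regions (95% Wilson interval 13.7% to 17.0%, for the number of regions only), whereas the places that the rule allows made up 30.7% of autosomal bases. The share of regions was 0.498 of the share of bases. Intronic summits numbered 16.8 per Mb of allowed sequence on chromosome III, 13.3 on II, 11.4 on I, 8.70 on IV and 7.36 on V, with 11.3 over all autosomes. Chromosome III thus held the densest set, with 82 regions, and chromosome V the sparsest, with 40. The autosomal regions of all kinds were also most numerous on III, with 457, and fewest on V, with 279. Of the regions of each chromosome, 17.9% were intronic on III, 15.9% on II, 14.3% on V, 14% on I and 13.6% on IV. Chromosomes III and V were thus also the extremes in the number of all regions, but I, with 450, came before II, with 358. The density of all regions was not computed.

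The intronic regions were weaker than the others. Their median signal was 72.1 (45.9 to 430), against 87.6 (45.8 to 6690) over the other 1595 autosomal regions. Intergenic regions were close to them, at a median of 69.2, exonic regions were lower, at 56.7, and promoter regions were higher, at 96.9. The lower signal was thus a difference from promoter regions only. In replicate 1 the median signal was 44.8 for intronic and 51.7 for the other regions, and in replicate 2 it was 29.7 for intronic and 38.0 for the other regions, so the order held in each library. Intronic regions supplied 4 of the 200 strongest thresholded regions and 7.75% of the summed autosomal signal. Regions are not replicates of a condition, so the counts and medians here are descriptions and carry no p-value.

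The share of intronic summits grew down the ranking. In the authors' list of 30000 regions from the joint call on both replicates, which includes background, 2.26% of autosomal summits at ranks 1 to 200 were intronic by the same rule. The share was 8.82% from there to rank 500, 17.0% at ranks 501 to 1000 and 18.6% at ranks 1001 to 2182, where the thresholded list ends. Beyond it the share was 26.4% at ranks 2183 to 4000 and 36.6% at ranks 15001 to 30000. GC content ran the other way. Its median within 50 bp of the intronic summits was 47.5% at ranks 1001 to 2182, 40.6% at ranks 2183 to 4000 and 31.7% at ranks 15001 to 30000.

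**Figure D1:**
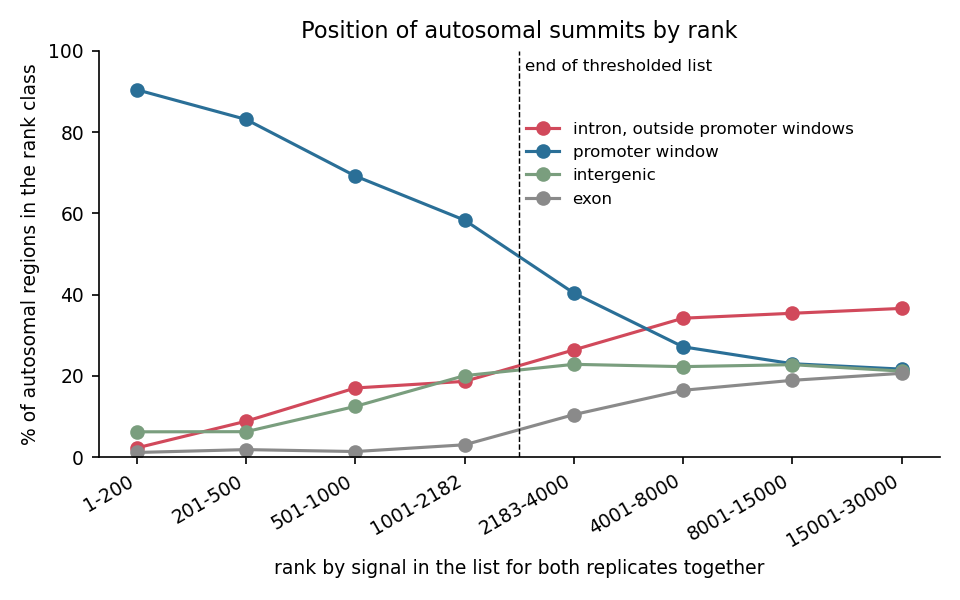
Share of autosomal summits in introns outside promoter windows, in promoter windows, in intergenic sequence and in exons (y axis, percent), by rank of signal in the joint call on both replicates (x axis, classes of rank). The intronic share was 2.26% at ranks 1 to 200, 18.6% at ranks 1001 to 2182 and 36.6% at ranks 15001 to 30000; the dashed line marks the end of the thresholded list.

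Both replicates held most of the intronic regions. A region of replicate 1 had its summit in 287 of the 288, and one of replicate 2 in 285. Nearly all of the other 1595 autosomal regions held one too, 1584 of replicate 1 and 1582 of replicate 2. The authors' threshold had already used both replicates. A stricter count asked whether a region overlapped one of the 2182 strongest regions of each replicate. By it, 199 intronic regions (69.1%) were found in both, where the background over all autosomal regions was 77.4%. The share was 78.9% among the other autosomal regions, 81.6% among promoter regions and 69.9% among intergenic regions, whose signal was similar to that of the intronic ones. Among exonic regions it was 58.1%. Neither replicate's list was overlapped by 9 of the 288 intronic regions and by 17 of the other 1595, a smaller share.

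Across the 284 intronic regions with a value in both replicates, signal was higher in replicate 1 at 244. The median log2 ratio of replicate 1 over replicate 2 was 0.55 (SD 0.61). The correlation of log signal across these regions was 0.69 by Pearson's r and 0.62 by Spearman's rho. The regions share the same pair of libraries and were selected on the signal of both together, so these coefficients describe the libraries only. Of the 4 regions without a value in both, those in frm-7, brc-1 and ulp-4 lacked one in replicate 2 and the region in aakg-1 lacked one in replicate 1.

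**Figure D2:**
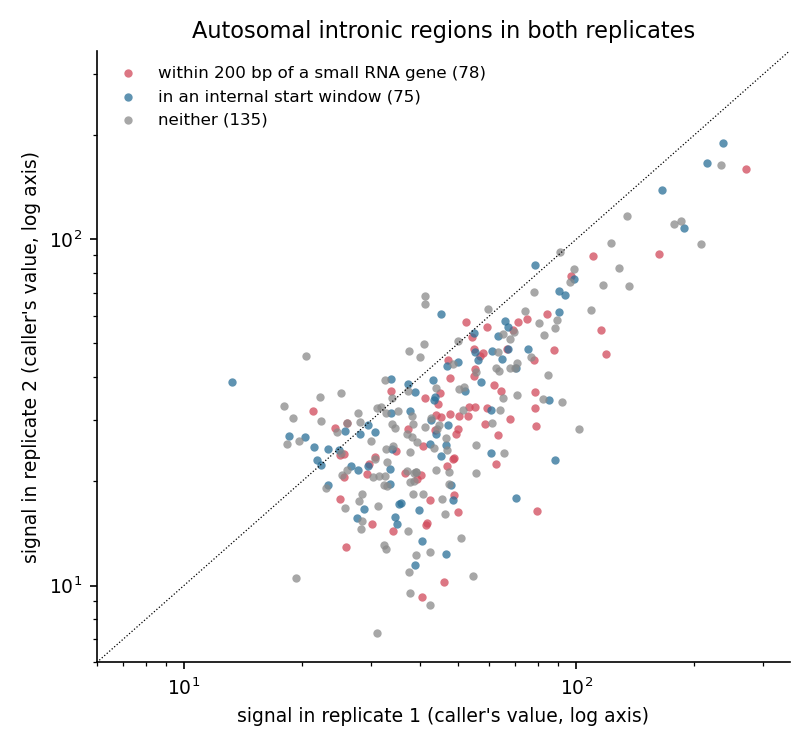
Signal of each intronic region in replicate 1 (x axis, caller's value, log scale) and replicate 2 (y axis, caller's value, log scale), coloured by whether the summit lay within 200 bp of a small RNA gene (78 regions), in the window of an internal transcript start (75) or neither (135); the dotted line marks equal values. Of the 284 regions plotted, 244 lie below the line, and the 3 sets overlap over the whole range.

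The 25 strongest intronic regions had signals of 164.1 to 430, and all 25 were among the 2182 strongest regions of both replicates. In 23 of them the value was higher in replicate 1, and in 2, those of ints-8 and lntl-1, it was higher in replicate 2. Within the 25, 5 lay at a small RNA gene, 7 in the window of an internal transcript start and 13 at neither.

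The strongest lay in wht-3, which encodes an ABC transporter of the White family. Its signal was 237 in replicate 1, 190 in replicate 2 and 430 in both together. The summit, at chrIII:4151041 in a 264 bp intron, was 149 bp upstream of an internal start of wht-3 and only 13 bp outside the promoter window of the nearest gene. The next, in dhc-4, a dynein heavy chain gene, had 271 in replicate 1 and 160 in replicate 2. A weaker region, with 79.1 in replicate 1 and 28.9 in replicate 2, lay in the same 360 bp intron, with its summit 147 bp downstream of the 5′ end of W05B2.8. The summits of these regions thus lay on either side of the snRNA gene, while the regions themselves overlapped the gene and each other.

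The region in slc-36.4, an amino acid transporter gene of solute carrier family 36, had 233 in replicate 1 and 164 in replicate 2. That in rpl-19, which encodes a protein of the large ribosomal subunit, had 216 in replicate 1 and 165 in replicate 2, and its summit was 260 bp upstream of an internal start. In scc-2, the gene for the cohesin loader, the values were 189 in replicate 1 and 108 in replicate 2. In all 3 the summit lay in the first intron of a transcript.

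In drap-1, which encodes a transcriptional corepressor subunit related to human DRAP1, the signal was 165 in replicate 1 and 138 in replicate 2. In col-72, a cuticle collagen gene, it was 185 in replicate 1 and 113 in replicate 2. The values for Y111B2A.12 were 208 in replicate 1 and 96.9 in replicate 2, and those for F57A8.1 were 178 in replicate 1 and 111 in replicate 2. The last of these 10 strongest regions, in the peroxidasin gene pxn-1, had 163 in replicate 1 and 90.4 in replicate 2. Each of the 10 was higher in replicate 1, and pxn-1 had the lowest value of the 10 in either library.

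The regions ranked 11 to 25 lay in C48D1.5, Y56A3A.7, T28F4.1, epg-9, Y43F8C.7, ints-8, zfp-1, F58G1.7, spop-1, lin-28, rsa-2, W06H8.6, pqn-41, lntl-1 and hrpk-1. In ints-8, which encodes a subunit of the Integrator complex, the values were 90.7 in replicate 1 and 92.0 in replicate 2, and the summit was 8 bp from rpr-1, the RNA gene of RNase P. In lin-28, the heterochronic gene for an RNA-binding protein that blocks let-7 maturation, they were 98.5 in replicate 1 and 76.9 in replicate 2, with the summit 64 bp upstream of an internal start. In hrpk-1, which encodes a relative of hnRNP K, they were 90.6 in replicate 1 and 70.9 in replicate 2, with the summit 126 bp upstream of an internal start.

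Small RNA genes were frequent neighbours of the intronic summits. Of the 288 intronic summits, 78 (27.1%) lay within 200 bp of a tRNA, snoRNA, snRNA, miRNA or rRNA gene, where the background over all autosomal regions was 8.82% and the share among the other autosomal regions was 5.52%. It was 4.02% among promoter regions and 11.7% among intergenic ones. Such places made up 0.609% of the bases that the rule allows. The 78 held 36 summits at tRNA genes, 30 at snoRNA genes, 9 at snRNA genes, 3 at miRNA genes and none at rRNA genes.

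By class, 12.5% of the intronic summits and 0.209% of the allowed bases lay near a tRNA gene. For snoRNA genes the shares were 10.4% of summits and 0.214% of bases, and for snRNA genes 3.13% of summits and 0.0897% of bases. Near miRNA genes they were 1.04% of summits and 0.0968% of bases. piRNA genes differed in direction, with 1.39% of summits and 3.68% of bases. Genes annotated only as ncRNA were near 25.3% of summits and covered 3.05% of bases, and any noncoding RNA gene was near 117 summits (40.6%), with 7.23% of bases.

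The summits at small RNA genes stood mostly on the upstream side. Relative to the 5′ end of the RNA gene, on its own strand, 60 of the 78 were upstream, 14 inside and 4 downstream, with a median position of -22 bp. The median was -19.5 bp for tRNA genes, -26 bp for snoRNA genes and -22 bp for snRNA genes. The RNA gene was on the strand of its host in 48 cases and on the opposite strand in 30. The introns were short, with a median of 360 bp.

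**Figure D3:**
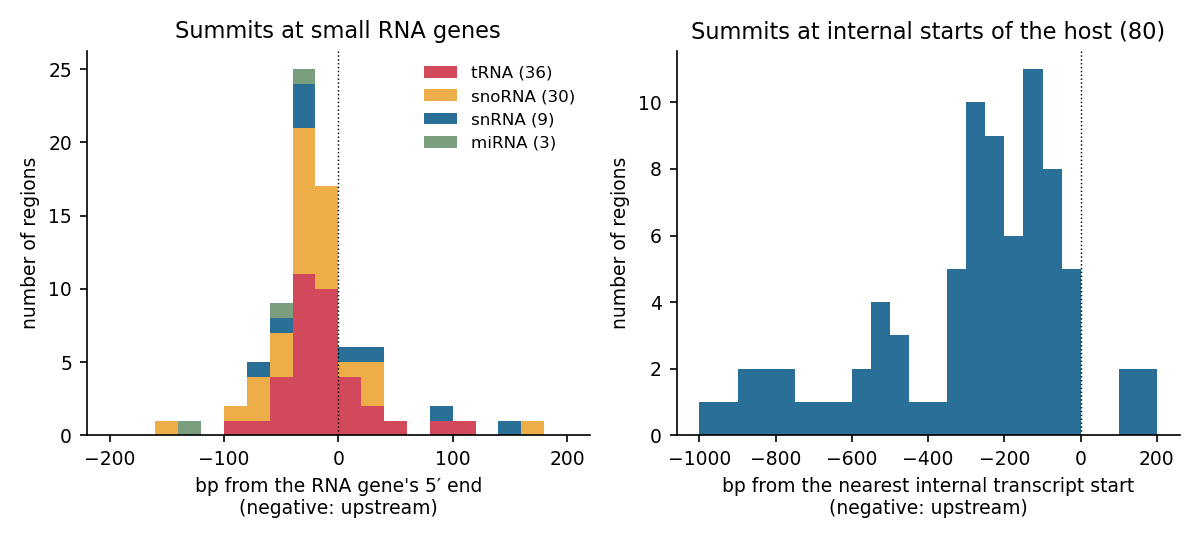
Left, distance from the 5′ end of the small RNA gene to the summit (x axis, bp, negative upstream) for the 78 intronic regions within 200 bp of one, with the number of regions (y axis) stacked by class. Right, distance from the nearest internal transcript start of the host to the summit (x axis, bp, negative upstream) for the 80 regions in such a start's window. Summits upstream number 60 of 78 on the left and 76 of 80 on the right. On the right the window itself lies mostly upstream, with 1000 bp against 200 bp downstream.

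The 36 regions at tRNA genes had a median signal of 78.5 (47.7 to 177), with 48.2 in replicate 1 and 29.5 in replicate 2. The highest was in rsa-2, which encodes a centrosomal protein of spindle assembly, next to W09D6.t2, with 96.8 in replicate 1 and 78.1 in replicate 2. K11H12.8 followed, with 119 in replicate 1 and 46.5 in replicate 2 next to K11H12.t1. The region before sup-5 in fli-1, a gene of the gelsolin family, had 56.8 in replicate 1 and 45.9 in replicate 2. Of these 3 regions, K11H12.8 had the most uneven values in the replicates.

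The 30 regions at snoRNA genes had a median of 86.1 (46.7 to 253), with 54.5 in replicate 1 and 30.3 in replicate 2. That in pxn-1 was the highest, and Y43F8C.7 was next, with 110 in replicate 1 and 89.2 in replicate 2 at 39 bp before Y43F8C.22. At snRNA genes the 9 regions had a median of 78.5 (46.7 to 429), and 3 of them lay at SL2 RNA genes. These were sls-2.18, with 33.7 in replicate 1 and 36.4 in replicate 2, sls-2.16, with 29.6 in replicate 1 and 22.4 in replicate 2, both in the glutamate receptor gene glr-2, and sls-2.14 in W09D6.5, with 40.5 in replicate 1 and 9.25 in replicate 2. These were the 3 lowest values of the class in replicate 1 but not in replicate 2. The summit in F58G1.7, with 115 in replicate 1 and 54.5 in replicate 2, lay inside sup-6, annotated as an snRNA gene.

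The 3 regions at miRNA genes all had their summit upstream. At mir-2214 in B0361.11 the values were 66.7 in replicate 1 and 48.3 in replicate 2. At mir-5595 in nurf-1, the gene for a subunit of the nucleosome remodelling factor NURF, they were 52.5 in replicate 1 and 57.7 in replicate 2. At mir-8192 in flcn-1, the gene related to human folliculin, they were 21.4 in replicate 1 and 31.9 in replicate 2. At the mir-5595 and mir-8192 regions the value was higher in replicate 2, unlike at most intronic regions.

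Internal transcript starts were the other frequent neighbours. Although no intronic summit lay in the window of a gene's outermost 5′ end, 84 (29.2%) lay in the same window, 1000 bp upstream to 200 bp downstream, of the start of a shorter transcript, where the background was 11.1% of the allowed bases. For 80 of the 84 this was the window of the host's internal start nearest to the summit. The other 4 lay in the window of a farther start of the host or of a start of another gene. Among these 80 the median position of the summit relative to it was -228.5 bp, 76 summits were upstream and 34 were within 200 bp. The window reaches 1000 bp upstream but only 200 bp downstream, and exons are left out. Most of the places where a summit could fall are thus upstream, so the upstream count is no result by itself. Leaving aside 9 regions that also lay at a small RNA gene, 75 remained, with a median signal of 71.1, 43.7 in replicate 1 and 29.1 in replicate 2.

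Regions in the Hox gene lin-39, the basic helix-loop-helix gene hlh-30 and the MAP kinase-interacting kinase gene mnk-1 were of this kind. In lin-39 the signal was 38.8 in replicate 1 and 36.3 in replicate 2, and the summit lay within 200 bp upstream of the internal start. In mnk-1 it was 65.7 in replicate 1 and 57.9 in replicate 2, at 104 bp upstream, and a further region of the same 5833 bp intron, outside such a window, had 77.9 in replicate 1 and 70.4 in replicate 2. In hlh-30 the region 148 bp upstream of an internal start had 34.5 in replicate 1 and 15.8 in replicate 2. Replicate 1 was higher at all 4, with the values closest in lin-39.

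First introns held many of the intronic regions. Of the 288 summits, 140 (48.6%) lay in the first intron of at least 1 transcript of the host, where the background was 31.6% of the allowed bases. The share was 16.7% of the regions at small RNA genes, 80.0% of those at internal starts and 49.6% of the remaining 135. The cause of these differences was not tested. The intron holding the summit had a median length of 1440 bp, against 975 bp over the allowed bases. It was 360 bp at small RNA genes, 1447 bp at internal starts and 3511 bp for the rest. The median distance from the summit to the nearest exon was 239.5 bp, against 205 bp over the allowed bases.

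The remaining 135 regions, at neither kind of feature, had a median signal of 65.8 (46.0 to 399), with 41.1 in replicate 1 and 29.4 in replicate 2. Noncoding RNA genes outside the small RNA classes were within 200 bp of 29 of them (21.5%). By their medians the 135 regions lay in the longest introns and were the weakest of the 3 sets in joint signal. In both top lists were 59 of the 78 regions at small RNA genes (75.6%), 48 of the 75 at internal starts (64.0%) and 92 of these 135 (68.1%).

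GC content was higher at the summits than beside them. Within 50 bp of the intronic summits the median GC content was 48.5%, while windows as wide, with centres 300 bp away on both sides, had 37.1%. GC was higher at the summit than in the flanks at 245 regions (85.1%), where the background over all autosomal regions was 85.8%, so this feature was as frequent elsewhere. For the other autosomal regions the medians were 46.5% at the summit and 35.1% in the flanks. Soft-masked bases of the RefSeq sequence, which mark repeats and simple sequence, held 19.1% of the intronic summits and made up 54.0% of the allowed bases. Within 50 bp of the summit their mean share was 18.9% for intronic, 19.8% for intergenic and 17.5% for exonic regions. It was 25.1% for all other autosomal regions, so a low share was not particular to the intronic set.

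The string GAGAGA, searched on both strands within 50 bp of the summit, occurred at 97 intronic regions (33.7%), where the background over all autosomal regions was 25.2%. It was in 7.47% of the flanking windows of the intronic regions. Among the others it was at 23.6% of all, 18.6% of promoter regions and 45.0% of intergenic regions. The intronic share thus lay between those of promoter and intergenic regions. It also differed inside the intronic set, with 11 of the 78 regions at small RNA genes (14.1%), 24 of the 75 at internal starts (32.0%) and 62 of the remaining 135 (45.9%).

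All 6-mers were counted in the same way, together with their reverse complements, and 5 had the highest ratios of summit to flank windows among those at 10% or more of the intronic summits. ACGCAG led with a ratio of 9.0, and ACTCTC followed with 8.17, at 17.0% of intronic regions and 12.9% of the other autosomal ones. CGAGAG had a ratio of 7.0, at 19.4% of intronic regions and 15.3% of the others, and CGCAGA had the same ratio, at 17.0% of intronic regions and 16.2% of the others. The ratio of ACACGC was 6.89, at 10.8% of intronic regions and 9.72% of the others. Several of the 5 share bases with each other or with the GAGAGA repeat, so they are not separate features. Unlike the leading 6-mer, ACACGC was most frequent at small RNA genes, with 12 of 78 regions (15.4%), against 6.67% at internal starts and 10.4% of the rest. ACGCAG was at 45 intronic regions (15.6%) and in 1.74% of their flanking windows. The background over all autosomal regions was 17.7%, with 18.1% of the other regions, 16.5% of promoter regions and 26.2% of intergenic regions, so its share was no higher in introns. It occurred at 1 of the 78 regions at small RNA genes (1.28%), 15 of those at internal starts (20%) and 29 of the rest (21.5%).

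The bases beside ACGCAG were uneven. Over 44 matches in the intronic regions, read in the direction of ACGCAG, the most frequent bases before it were G, A and G, at 77.3%, 84.1% and 72.7% of matches, and the base after it was A at 84.1%. The joined string GAGACGCAGA was at 26 intronic regions (9.03%), against 127 of the other autosomal regions (7.96%), and in 0.521% of the intronic flanking windows. Either GAGAGA or ACGCAG was at 113 intronic regions (39.2%) and both at 29. A match is a description of the sequence and does not identify a site.

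Signal differed little with these strings. The 97 intronic regions with GAGAGA had a median signal of 74.3 (43.9 in replicate 1, 31.8 in replicate 2), against 70.0 (45.8 in replicate 1, 28.3 in replicate 2) at the 191 without. The order was thus opposite in the 2 libraries. With ACGCAG the median was 72.3, against 72.0 without.

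**Figure D4:**
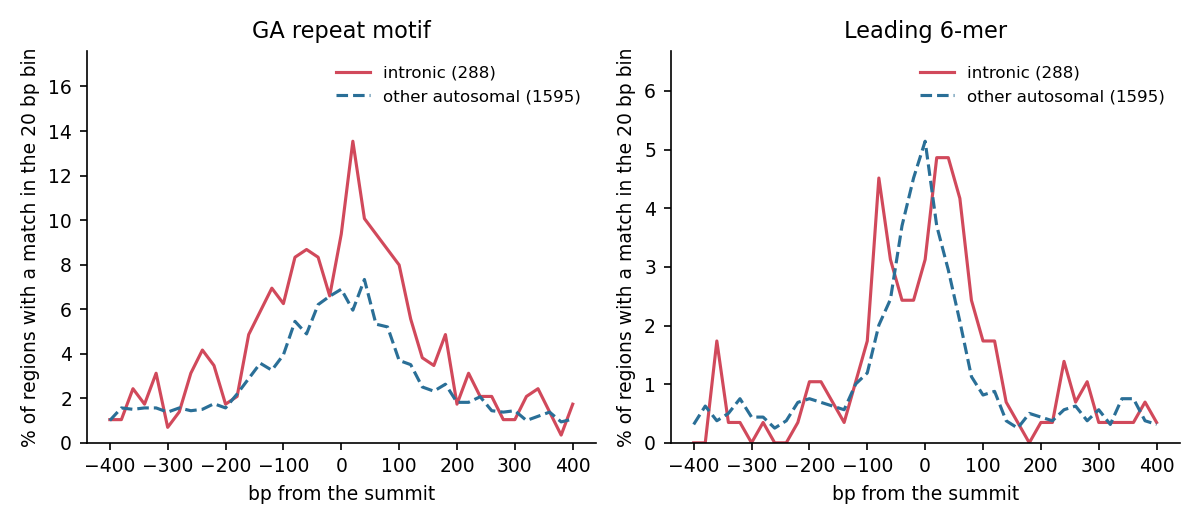
Share of regions with a match in each 20 bp bin (y axis, percent) by distance from the summit (x axis, bp), for the GA repeat motif (left) and the 6-mer with the highest ratio of summit to flank (right), in the 288 intronic regions (solid) and the 1595 other autosomal regions (dashed). Both motifs are more frequent near the summit than at 300 bp in both sets.

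Other strings were rare within 50 bp of the intronic summits. The GC box string CCGCCC was at 25 (8.68%), against 5.33% of the other autosomal regions. The GATA factor string TGATAA was at 11 (3.82%), against 3.13% of the others and 9.03% of the intronic flanking windows, so it was less frequent at summits than beside them. The E-box CACGTG was at 9 (3.13%), the bZIP string TGANTCA at 4, the forkhead string TGTTTAC at 3, and each of the E2F strings TTTCGCGC and TTTGGCGC at 2. The tRNA B box was within 50 bp at 5 intronic regions (1.74%), against 0.439% of the others, and a motif known upstream of noncoding RNA genes was at none. These shares depend on the width searched. With 100 bp to each side the B box was at 8.68% of the intronic regions, the GC box string at 13.2% and the GATA factor string at 8.33%.

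The 288 regions lay in 242 host genes, of which 213 held 1 region, 22 held 2 and 7 held at least 3. Of the 15059 autosomal genes with allowed bases, 1.61% were hosts. Hosts were long, with a median of 4.19 kb of allowed sequence against 0.695 kb over all these genes. A summit also lay in the promoter window of 39 of the 242 hosts (16.1%), where the background over all such genes was 9.7%, so most hosts had none there. Close pairs were few, with 30 regions having another within 1000 bp.

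The 7 hosts with at least 3 regions held 31 regions, none at a small RNA gene. In ppfr-1, which encodes a regulatory subunit of protein phosphatase 4, there were 7 over 10.4 kb, with signals of 32.3 to 55.5 in replicate 1 and 13.1 to 68.4 in replicate 2. All 7 lay in its introns of 5374 bp and 10404 bp, and 6 were in both top lists. One of them was higher in replicate 2, at 41.1 in replicate 1 and 68.4 in replicate 2. The nearest of the 7 to a miRNA gene lay 354 bp upstream of mir-71, beyond the distance used for neighbours.

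In zfp-1, which encodes a zinc finger protein related to human AF10, there were 6 over 7.14 kb, with signals of 20.5 to 117 in replicate 1 and 32.0 to 74.0 in replicate 2. GAGAGA was at 5 of the 6, and all 6 lay in a first intron of some transcript. The strongest had 117 in replicate 1 and 74.0 in replicate 2, and the next 90.3 in replicate 1 and 61.7 in replicate 2. The second of these stood 649 bp upstream of an internal start.

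In pqn-41, the gene for a glutamine-rich protein required for death of the male linker cell, there were 6 over 17.4 kb. Their signals were 31.1 to 96.2 in replicate 1 and 7.29 to 75.4 in replicate 2, and 3 of the 6 were in both top lists. The other hosts with 3 regions were F57A8.1, let-526, which encodes an ARID subunit of the SWI/SNF complex, vhp-1, which encodes a MAP kinase phosphatase, and the polarity kinase gene par-1. In F57A8.1 the signals were 54.3 to 287, in let-526 52.5 to 134, in vhp-1 50.9 to 64.7 and in par-1 48.1 to 56.4. Only F57A8.1 and let-526 among these had a region above 100.

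**Figure D5:**
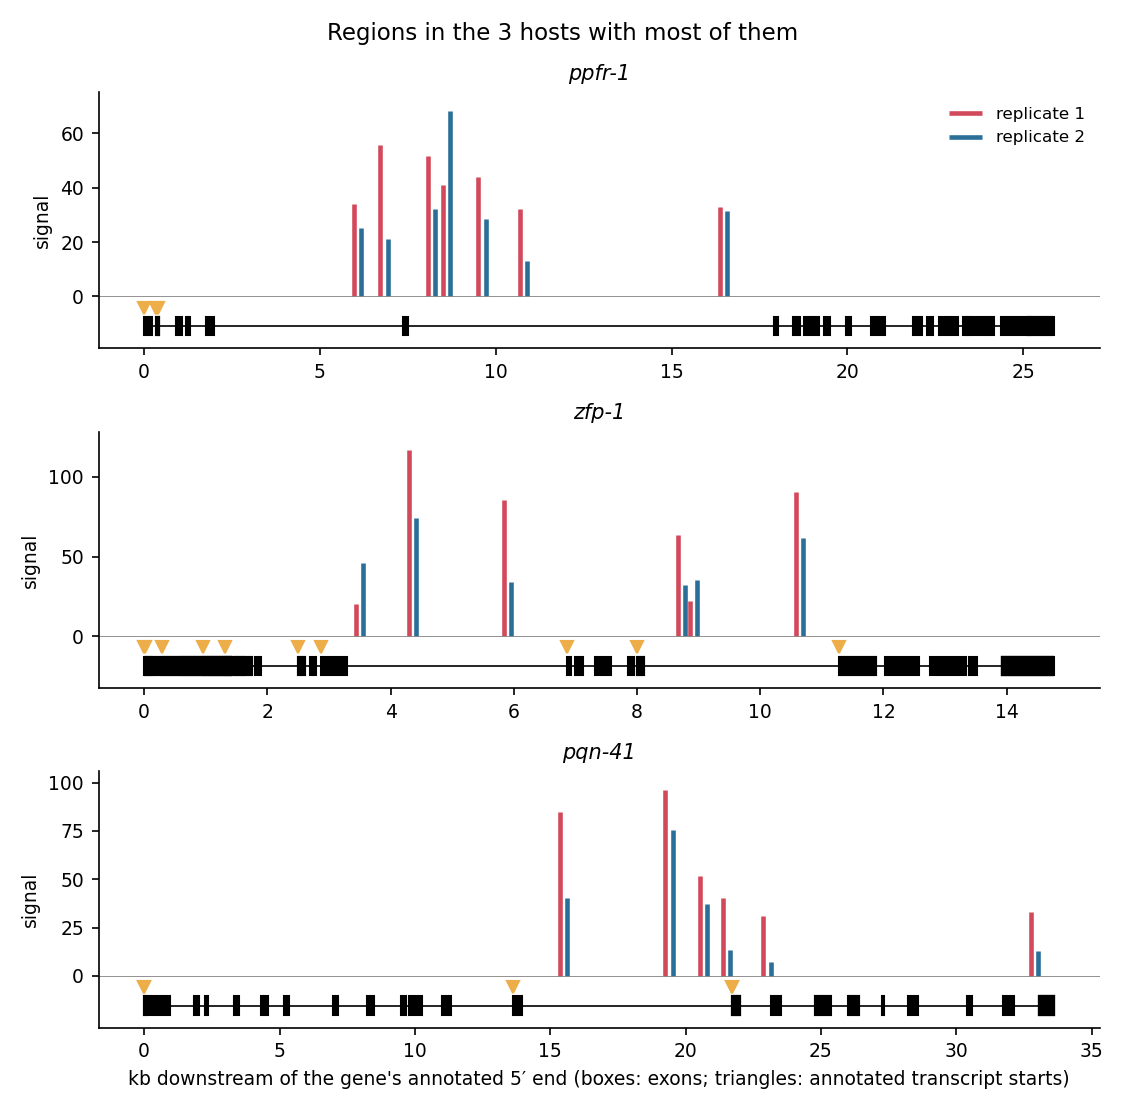
Intronic regions of ppfr-1, zfp-1 and pqn-41 along each gene (x axis, kb downstream of its annotated 5′ end), with signal in replicate 1 and replicate 2 as vertical lines (y axis, caller's value); black boxes are exons and triangles annotated transcript starts. The 7 regions of ppfr-1 lie in 2 long introns, and the 6 of zfp-1 lie on either side of its internal starts.

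Among lists of host genes, transcription factors held the most. Of 38 with allowed bases, 8 hosted intronic regions, where 1.61% of all genes did. The 9 regions in them came to 36.9 per Mb of allowed sequence, against 11.3 over all autosomes. A density above 11.3 was not particular to this list. It was 30.8 per Mb for RNA-binding, 25.5 for kinase and signalling, 17.9 for ion channel and calcium and 14.5 for synaptic genes. The muscle and cytoskeleton list had 5.07, and the axon guidance and Wnt lists had none. The hosts were mef-2, lin-39, lin-42, daf-16, skn-1, lin-11, hlh-30 and egl-27. In mef-2, a MADS-box gene, the signal was 91.7 in replicate 1 and 33.8 in replicate 2, the highest of the list. In daf-16, the FOXO gene of insulin signalling, it was 47.4 in replicate 1 and 19.7 in replicate 2, and in skn-1, the gene related to Nrf, 43.9 in replicate 1 and 21.6 in replicate 2. In lin-42, the gene related to Period, it was 25.2 in replicate 1 and 35.9 in replicate 2. None of these 4 summits lay at an internal start or a small RNA gene. The summit in lin-42 did lie inside a gene annotated only as ncRNA. Such a gene was 137 bp from the summit in daf-16, 142 bp in skn-1 and 1235 bp in mef-2.

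Kinase and signalling genes were hosts in 4 of 26 cases, namely mnk-1, mpk-1, max-2 and daf-2. In mpk-1, the ERK gene, the signal was 67.8 in replicate 1 and 51.4 in replicate 2, and in daf-2, the insulin receptor gene, 31.1 in replicate 1 and 32.5 in replicate 2. Ion channel and calcium genes were hosts in 3 of 27 cases. These were osm-9, a TRPV channel gene, unc-43, which encodes CaM kinase II, and mca-3, a calcium pump gene, none with a signal above 52.8. The region in osm-9 lay 37 bp before the tRNA gene B0212.t1, with 46.0 in replicate 1 and 10.2 in replicate 2.

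RNA-binding genes were hosts in 2 of 26 cases, lin-28 and larp-1, and larp-1, related to La proteins, had 76.5 in replicate 1 and 45.7 in replicate 2. Synaptic genes were hosts in 2 of 26 cases, klc-2, a kinesin light chain gene with 63.4 in replicate 1 and 41.6 in replicate 2, and rab-3, with 30.7 in replicate 1 and 27.7 in replicate 2. Muscle and cytoskeleton genes were hosts in 1 of 25 cases, the spectrin gene unc-70, where the region lay at a snoRNA gene. Of 28 axon guidance and cell adhesion genes, with 0.336 Mb of allowed sequence, none was a host. Nor was any of 21 Wnt pathway genes, with 0.0718 Mb. Over all autosomes 1.61% of genes with allowed bases were hosts and the density was 11.3 per Mb. The absence from the short Wnt list therefore says little. These lists differ in intron length and were chosen by hand, and no test was made of them.

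At the edges of the rule, the intronic regions nearest to a promoter window were those in nstp-10 and hrpk-1, each 7 bp outside it, and wht-3, 13 bp outside. Just inside, and so not included, were summits in lin-59, by 1 bp, and fars-1, by 11 bp. In all, 65 autosomal summits in introns fell in a promoter window, and 10 intronic regions lay within 100 bp of a window edge. The weakest included region was in akap-1, with a signal of 45.9 (27.6 in replicate 1 and 15.7 in replicate 2). The first intronic region below the authors' threshold was in daf-5, with 45.7.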

How the data were processed

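Per the deposited file lists, regions were called by the authors in either replicate and jointly, relative to a control alignment, in ce10 and ce11. An IDR threshold was then applied, which keeps regions that rank alike in the replicates. The deposited signal value is the authors' caller's own, with an unstated scale. Aligner, caller and their versions were not given in those file lists or the labels. The ce10 lists were not used, since no annotation of that build was at hand.

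Summits of the ce11 lists were placed on Ensembl release 115 genes (WBcel235, the assembly of ce11). Noncoding RNA genes took their RefSeq symbol where coordinates were identical. The signal in a replicate is that of its strongest region with a summit inside the thresholded region. The allowed bases are all autosomal positions that meet the intron rule. Motifs were sought within 50 bp of the summit and in windows of that width centred 300 bp to each side, on both strands. Medians are over regions. Intervals are Wilson intervals at 95%, for the number of regions only, as depth is unknown.

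There was 1 group of 2 replicates, so no test was made. The regions, gene lists, motifs and comparisons were chosen with earlier results of these data known. Named hosts are those of the 25 strongest intronic regions, those with at least 3, and the up to 3 with the strongest regions of each gene list. The other hosts of the transcription factor and kinase lists (daf-16, skn-1, lin-11, hlh-30, egl-27 and daf-2), further hosts of small RNA genes, the regions lacking a replicate value, and the sequences at RNA genes were chosen after their values were seen. Alternatives were other promoter windows, distances, overlaps, list lengths, window widths and transcript choices, the upper 50% of regions by signal, and the strongest 2182 regions of each replicate alone. Python 3.11.15 with numpy 2.4.6, pandas 2.3.3 and scipy 1.17.1 was used. The placement of summits, introns and motifs was tested on simulated data, and all 5 checks passed.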

Additional observations from a re-analysis of the deposited data

How the results depend on the processing

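Without replicate 1 or replicate 2 (the strongest 2182 regions of the other library), the intronic regions numbered 295 to 298, their share of regions over that of bases was 0.508 to 0.515, and their median signal over that of the others was 0.778 to 0.848. The share near a noncoding RNA gene was 36.3% to 36.6%, at an internal start 27.2% to 30.5%, in a first intron 47.0% to 49.5%, and GC at the summit exceeded the flanks by 9.90 to 11.9 percentage points. The share found in both replicates has no value without one of them. In the upper 50% of regions by signal there were 113 intronic regions, with a ratio to bases of 0.380, a signal ratio of 0.773 and a GC difference of 14.4 points. The number was 177 when the whole region had to be intronic. Windows at every transcript start gave a ratio to bases of 0.396. The share in both replicates was 62.8% with 50% overlap (70.0% of the other autosomal regions) and 92.7% with the top 4000 regions (95.7% of the others). The share near a noncoding RNA gene was 14.6% at a distance of 0 bp (1.56% of allowed bases) and, in an alternative chosen after seeing the data, 27.1% with tRNA, snoRNA, snRNA, miRNA and rRNA genes only (0.609% of bases); without piRNA genes, also chosen then, it was 39.2% (3.64% of bases). The share at an internal start was 21.2% with windows of 500 and 100 bp (5.97% of bases) and 11.8% with 200 bp to either side (3.33% of bases). The first intron share was 32.8% in the longest coding transcript (21.7% of bases in its introns). With windows of 100 bp to each side the GC difference was 10.2 points and GAGAGA was at 47.6% (35.0% of the other autosomal regions). The stricter definitions count fewer summits by construction; for the other changes the cause was not tested. Wherever a value for bases or for the other regions is given here in parentheses, the direction was that of the report. No paired analysis was possible because there was 1 group and no comparison between groups. Depth, and so the power to find weak regions, is unknown.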
